A study of Homo sapiens with 12 samples.

Results

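The 9 genes described here carry the first steps of death receptor signalling and its brakes. They are the receptors FAS, TNFRSF10A and TNFRSF10B, the adaptor FADD, the initiator caspase CASP8, and the inhibitors CFLAR, XIAP, BIRC2 and BIRC3. They were chosen by gene symbol, and all 9 were among the 23621 gene rows of the expression tables and among the 14251 active genes, those with an FPKM (sequenced fragments scaled to transcript length and library size) above 1 in at least 1 of the 12 libraries. RNA-seq libraries came from KURAMOCHI (Ku) and COV362 (Cov), 2 untransduced human ovarian cancer cell lines, each treated for 6 hr with DMSO, with 50 nM THZ1 or with 250 nM THZ1, a covalent inhibitor of the transcriptional kinases CDK7 and CDK12/13. Each of the 6 groups had 2 libraries. The labels do not say whether these came from separate cultures, so p-values measure only the spread between libraries. Ku was grown in RPMI and Cov in DMEM, the dose groups of a line shared its medium, and both doses of a line were compared with the same 2 DMSO libraries.

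Death receptors are membrane proteins that recruit FADD through a shared death domain once a ligand of the TNF family is bound, and FADD in turn recruits CASP8, which is activated by proximity and cleaves the executioner caspases. FAS binds FAS ligand, and TNFRSF10A and TNFRSF10B bind TRAIL. CFLAR encodes c-FLIP, a catalytically inactive relative of CASP8 that competes with it for FADD. XIAP binds and blocks active caspases, while BIRC2 and BIRC3, known as cIAP1 and cIAP2, are ubiquitin ligases of the TNF receptor complex. BIRC3 and CFLAR are known targets of NF-kB, and c-FLIP is known as a short-lived protein, which the RNA measured here does not report on.

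The deposited values were scaled to spike-in RNA added to RNA normalized by cell count, so a fall shared by most genes stays visible. A lower value can stand for less RNA per cell or for fewer cells that contain it, and these cannot be told apart in bulk RNA. The median log2 fold change of all active genes was -0.40 in Ku and -0.85 in Cov at 50 nM, and -1.11 and -1.31 at 250 nM. The 2 replicates of a group correlated across genes at Pearson's r of 0.968 to 0.983. Read depth is unknown, and the lowest value shared by undetected genes was 0.0783 to 0.119 FPKM. Of the epithelial and ovarian markers, PAX8, SOX17, KRT8 and KRT18 were at 113 FPKM or more in the DMSO libraries of both lines, while EPCAM (4.01 and 4.24), KRT7 (4.68 and 4.54) and MUC16 (0.172 and 0.159) were low in Ku and WT1 (0.565 and 0.741) was low in Cov. The leukocyte genes PTPRC and CD3E were at or below 0.299 FPKM in every library, and CD14 was at 0.910 to 1.63 in Ku and up to 0.778 in Cov. Of the endothelial markers in the DMSO libraries, CDH5 was at 7.50 to 8.67 FPKM in both lines, VWF at 2.36 and 2.97 in Ku and 0.569 and 0.631 in Cov, and PECAM1 at or below 0.378. The fibroblast gene COL1A1 was at 2.46 to 3.20 FPKM there, and DCN and LUM were at or below 0.122.

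In the annotation lifted to GRCh37, the build of the deposited values, FAS is at chr10:90750414-90775542 on the plus strand, with 9 exons in its longest coding transcript. CASP8 at chr2:202098166-202226559 and CFLAR at chr2:201980877-202041410 are close together, both on the plus strand. FADD, at chr11:70049402-70053496 on the plus strand, is the shortest of the 9, with a span of 4.1 kb and 2 exons, and 8.8% of the 12757 active genes with a span are shorter. BIRC3 at chr11:102188215-102210134 and BIRC2 at chr11:102217942-102249401 follow each other on the plus strand with 7807 bases between them. XIAP is at chrX:122993562-123047822 on the plus strand. CASP8 has the longest span, 128.4 kb, against a median of 31.5 kb. Exons of 6 members share bases with a gene on the other strand, among them FADD with 1011 shared bases. The authors used a stranded library kit, but whether the quantification used strand is not given in the sources used here. CASP8 shares 343 exon bases and CFLAR 445 with another gene on the same strand, which strand cannot separate.

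Upstream sequences are shown for FADD, which had the largest falls of the 9, for the neighbours BIRC3 and BIRC2, whose levels differed, and for CFLAR, which fell less than most members. Each is the 250 bases before the RefSeq start listed first for the gene, which need not be the most upstream. All are on the plus strand of GRCh38.p14, a later build than that of the expression values. They lie at chr11:70203046-70203295, chr11:102317234-102317483, chr11:102346964-102347213 and chr2:201118466-201118715 in this order. FADD and BIRC3 have 1 listed start each, BIRC2 has 2 and CFLAR has 4. Capitals mark GGGCGG on either strand and the NF-kB consensus.
FADD: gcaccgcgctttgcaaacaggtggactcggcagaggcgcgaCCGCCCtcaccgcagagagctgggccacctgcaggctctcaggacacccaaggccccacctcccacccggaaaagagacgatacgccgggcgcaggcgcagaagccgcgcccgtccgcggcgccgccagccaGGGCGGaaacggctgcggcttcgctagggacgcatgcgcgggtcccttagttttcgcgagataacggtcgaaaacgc
BIRC3: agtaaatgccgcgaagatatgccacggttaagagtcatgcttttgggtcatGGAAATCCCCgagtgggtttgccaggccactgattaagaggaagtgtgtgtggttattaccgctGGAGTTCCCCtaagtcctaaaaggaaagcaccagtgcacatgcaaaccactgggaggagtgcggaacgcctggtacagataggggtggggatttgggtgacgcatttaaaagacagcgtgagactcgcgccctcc
BIRC2: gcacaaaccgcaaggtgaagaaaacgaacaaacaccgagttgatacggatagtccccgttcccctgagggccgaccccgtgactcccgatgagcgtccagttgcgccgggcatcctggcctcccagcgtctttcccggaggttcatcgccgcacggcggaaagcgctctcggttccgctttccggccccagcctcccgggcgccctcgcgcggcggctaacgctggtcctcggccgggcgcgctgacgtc
CFLAR: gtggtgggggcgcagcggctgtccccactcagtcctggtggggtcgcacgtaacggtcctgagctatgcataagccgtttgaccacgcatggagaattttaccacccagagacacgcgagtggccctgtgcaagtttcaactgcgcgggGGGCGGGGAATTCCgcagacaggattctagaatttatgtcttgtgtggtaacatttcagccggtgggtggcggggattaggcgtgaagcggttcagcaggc

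Both strands were searched for TATAAA, which marks some core promoters, for GGGCGG, which Sp1 family factors recognize, for CCAAT, which the NF-Y complex recognizes, for CACGTG, the form of E-box that MYC and its relatives recognize, for TGACGTCA, which CREB family factors recognize, and for the NF-kB consensus. BIRC3 held the NF-kB consensus at 2 places, 199 to 190 and 135 to 126 bases before the start, both on the minus strand. CFLAR held it 97 to 88 bases before the start, overlapping a GGGCGG, and these were the only 2 of the 7 members with a RefSeq promoter entry that held it. The share among all 27305 promoter windows was 5.05%. GGGCGG was found in 5 of the 7 members and in 42.3% of all windows. The BIRC2 window held none of the 6 motifs, and the other 4 motifs were found in none of the 7 members. Only the window of the start listed first was searched for each gene, so matches before other starts were not looked for. A match describes letters only, and no binding was measured.

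All 9 genes were lower after THZ1 in both lines on the deposited scale, most of all FADD. Calls were made with limma on log2(FPKM + 1), and needed a Benjamini-Hochberg adjusted p below 0.001 over all active genes together with a change of more than 0.5 on the log2 scale. In Ku at 50 nM, 1 of 9 members was called lower, FADD, while 11.3% of all active genes were, a share that was 0.0421% to 0.919% when any 1 Ku library was left out. In Ku at 250 nM all 9 were called lower, against a background of 68.6%. In Cov all 9 were called lower at 50 nM, against 70.5%, and all 9 at 250 nM, against 84%. No member was called higher in any of the 4 comparisons, and none had a log2 fold change above 0 at any p on this scale. The background of genes called higher was 0.0842% and 0.0491% in Ku and 0.0772% and 0.105% in Cov, at 50 and 250 nM. Most active genes were called lower in 3 of the comparisons, so the count of calls does not set the members apart there.

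The median log2 fold change of the 9 was -0.60 in Ku and -1.42 in Cov at 50 nM, and -1.69 and -2.27 at 250 nM, beside the medians of all active genes given above. Of the 9 members, 8 lay below the all-gene median in Ku at 50 nM and 7 did at 250 nM, where TNFRSF10B and BIRC3 lay above it. In Cov all 9 lay below it at both doses. In Ku at 50 nM, both libraries of 8 members were below both DMSO libraries, all but TNFRSF10B, as were those of 75.8% of all active genes. In Cov at 50 nM this was so for all 9 members and for 95.7% of all genes.

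**Figure D1:**
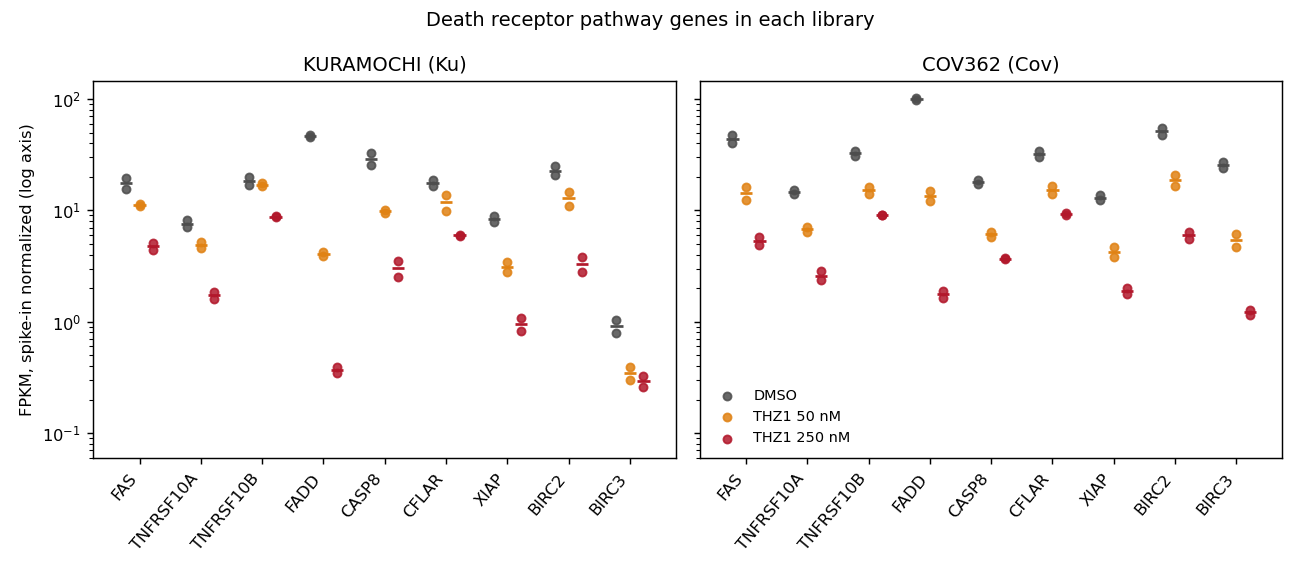
FPKM of each of the 9 genes (log axis) in each library of Ku (left) and Cov (right), with DMSO in grey, 50 nM THZ1 in orange and 250 nM in red. Points are libraries and short lines the mean of 2. FADD spans the widest range in both lines, from 45.4 and 47.2 to 0.344 and 0.390 FPKM in Ku.

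Among the receptors, FAS fell most in Cov and TNFRSF10B fell least in both lines at 250 nM. FAS, the receptor of FAS ligand, was at 19.5 and 15.6 FPKM in the Ku DMSO libraries, at 11.0 and 11.4 with 50 nM and at 5.11 and 4.39 with 250 nM. In Cov the values were 40.4 and 47.3 FPKM in DMSO, 12.5 and 16.1 with 50 nM and 5.76 and 4.94 with 250 nM. Each dose lay below the one before it in both lines with no overlap. At 250 nM the mean was 27.0% of DMSO in Ku and 12.2% in Cov, with log2 fold changes of -1.69 ± 0.14 (SE, n = 2 per group, adjusted p = 6.7e-05) and -2.82 ± 0.15 (adjusted p = 1.84e-06). At 50 nM the log2 fold change was -0.60 in Ku, which was not called (adjusted p = 0.0141), and -1.56 in Cov.

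TNFRSF10A, the TRAIL receptor also called DR4, lies at chr8:23047965-23082615 on the minus strand, 121420 bases from TNFRSF10B at chr8:22877646-22926544 on the same strand. It was at 8.13 and 7.10 FPKM in Ku DMSO libraries, at 4.58 and 5.17 with 50 nM and at 1.85 and 1.60 with 250 nM. The Cov libraries had 14.1 and 15.2 FPKM, then 7.13 and 6.35, then 2.35 and 2.84. No group overlapped another within a line. It kept 22.7% of its DMSO level in Ku and 17.7% in Cov at 250 nM, log2 fold changes of -1.66 ± 0.14 (adjusted p = 6.51e-05) and -2.13 ± 0.11 (adjusted p = 2.11e-06).

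TNFRSF10B, the TRAIL receptor also called DR5, was at 20.04 and 16.9 FPKM in Ku DMSO libraries and at 17.4 and 16.4 with 50 nM, so that these groups overlapped. With 250 nM it was at 8.82 and 8.64 FPKM, below both. Cov levels were 31.1 and 34.4 FPKM, then 14.0 and 16.3, then 9.04 and 9.12, and these groups were apart at each dose. Its log2 fold change in Ku was -0.12 ± 0.11 at 50 nM (adjusted p = 0.393) and -0.997 ± 0.11 at 250 nM (adjusted p = 0.000202), and in Cov it was -1.07 and -1.74. At 250 nM TNFRSF10B kept 47.2% of its DMSO level in Ku and 27.7% in Cov, the largest share of any member in Ku. In Cov CFLAR kept slightly more, 28.7%.

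FADD showed the largest fall of the 9 in every comparison. This adaptor, which links the receptors to CASP8, had the highest FPKM of the 9 in DMSO in both lines. In Ku it was at 45.4 and 47.2 FPKM in DMSO, at 3.90 and 4.23 with 50 nM and at 0.344 and 0.390 with 250 nM. In Cov the same groups were at 98.0 and 102 FPKM, 12.2 and 14.8, and 1.62 and 1.89. The groups were far apart, and even the lowest values were above the level of undetected genes. FADD was 11.4-fold lower in Ku and 7.38-fold lower in Cov at 50 nM, and 126-fold and 56.8-fold lower at 250 nM. On the log2(FPKM + 1) scale, which understates changes that end at low values, its log2 fold change was -3.23 and -2.80 at 50 nM and -5.11 ± 0.12 (adjusted p = 5.08e-06) and -5.19 ± 0.11 (adjusted p = 8.16e-07) at 250 nM. Of the 14251 active genes, 26 fell more in Ku and 19 in Cov at 250 nM, and 57 and 74 did at 50 nM. The call in Ku at 50 nM (adjusted p = 0.00016) was lost when any library except Ku DMSO replicate 2 was left out, with adjusted p up to 0.00149 and log2 fold changes of -3.27 to -3.18, whereas the calls at 250 nM held without each library in turn.

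CASP8, the initiator caspase, fell less than FADD. In Ku it was at 32.6 and 25.3 FPKM in DMSO, at 9.41 and 10.2 with 50 nM and at 2.52 and 3.53 with 250 nM. Cov libraries were at 17.2 and 18.6 FPKM, then at 5.77 and 6.45, then at 3.71 and 3.67, and the groups of each line were apart. The levels at 50 nM were a similar share of DMSO, 33.8% in Ku and 34.1% in Cov. From 50 to 250 nM the mean went to 30.9% of its 50 nM level in Ku and to 60.3% in Cov, and the difference between lines was not tested because the tables were normalized separately. The log2 fold change at 250 nM was -2.90 ± 0.18 in Ku (adjusted p = 2.26e-05) and -2.01 ± 0.10 in Cov (adjusted p = 1.59e-06). At 50 nM in Ku it was -1.46 and missed the threshold (adjusted p = 0.00133).

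**Figure D2:**
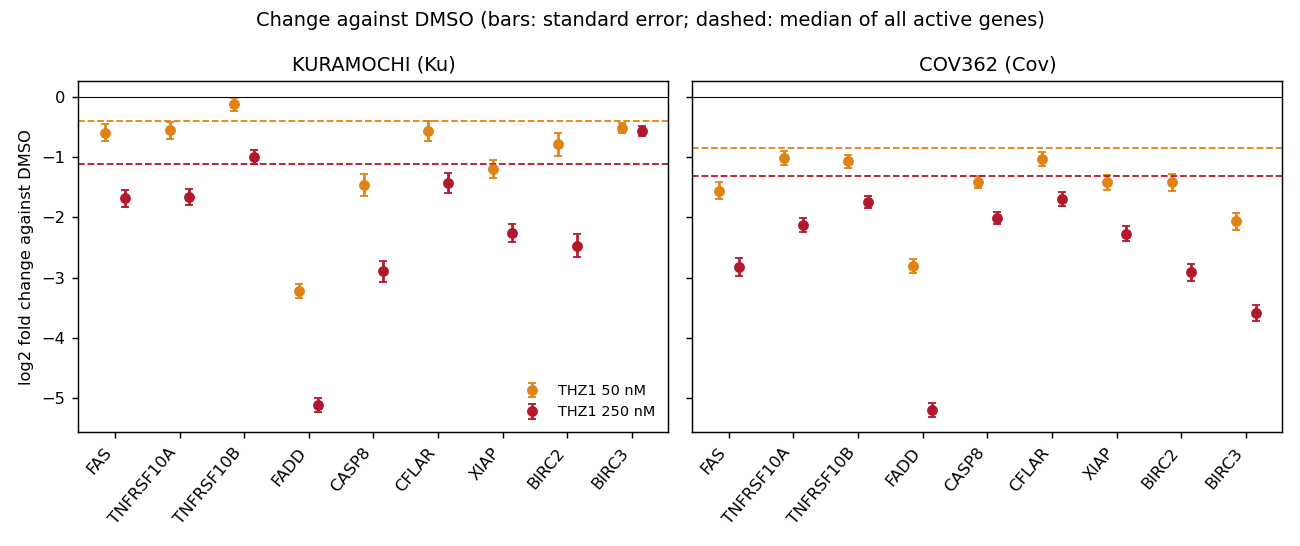
Log2 fold change against DMSO, on the log2(FPKM + 1) scale, with its standard error, for the 9 genes in Ku (left) and Cov (right) at 50 nM (orange) and 250 nM (red). Dashed lines are the medians of all active genes, and in Ku TNFRSF10B lies above that line at both doses, on the scale as deposited.

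CFLAR, the competitor of CASP8 for FADD, had a smaller fall than CASP8 and FADD at 250 nM on the deposited scale. Under equal-median scaling its log2 fold change was 0.38 in Ku and 0.27 in Cov, neither called. The median of all active genes was then 0.30 and 0.33. With median of ratios CFLAR was at -0.10 in Ku and -0.17 in Cov, neither called. It was at 18.8 and 16.6 FPKM in Ku DMSO libraries, at 13.7 and 9.84 with 50 nM and at 6.07 and 5.84 with 250 nM. Its Cov values were 30.1 and 34.3 FPKM, then 14.0 and 16.5, then 9.43 and 9.05. Groups did not overlap, though the Ku libraries at 50 nM were spread widely. The log2 fold change at 250 nM was -1.42 ± 0.17 in Ku (adjusted p = 0.000276) and -1.69 ± 0.11 in Cov (adjusted p = 4.98e-06), 33.6% and 28.7% of DMSO.

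XIAP, the direct inhibitor of caspases, was at 8.87 and 7.94 FPKM in Ku DMSO libraries, at 3.43 and 2.81 with 50 nM and at 0.830 and 1.09 with 250 nM. In Cov it started at 12.3 and 13.7 FPKM and went to 3.83 and 4.67, then to 2.02 and 1.78. No groups of a line overlapped, and the log2 fold changes at 250 nM were -2.26 ± 0.15 in Ku (adjusted p = 2.7e-05) and -2.27 ± 0.12 in Cov (adjusted p = 2.05e-06). XIAP kept 11.4% of its DMSO level in Ku and 14.7% in Cov.

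BIRC2, which encodes cIAP1, was at 24.8 and 20.7 FPKM in Ku DMSO libraries, at 14.7 and 11.0 with 50 nM and at 2.80 and 3.78 with 250 nM. The levels in Cov were 47.7 and 55.1 FPKM, then 16.5 and 20.9, then 6.44 and 5.48. The groups of each line were apart, and in Ku the mean at 250 nM was 25.7% of that at 50 nM. BIRC2 had a log2 fold change of -2.47 ± 0.19 in Ku at 250 nM (adjusted p = 4.8e-05) and -2.91 ± 0.14 in Cov (adjusted p = 1.47e-06).

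BIRC3, which encodes cIAP2, was the member whose level differed most between the lines, as far as separately normalized tables can be set side by side. In Ku it was near the limit of an active gene, at 1.04 and 0.798 FPKM in DMSO, at 0.389 and 0.302 with 50 nM and at 0.327 and 0.259 with 250 nM. Cov had 24.2 and 27.2 FPKM, then 4.66 and 6.16, then 1.28 and 1.15. In Ku the 2 doses overlapped and both were below DMSO, while in Cov all groups were apart. At 250 nM it kept 31.9% of DMSO in Ku and 4.73% in Cov. The log2 fold change was -0.57 ± 0.080 in Ku (adjusted p = 0.000668), where the added pseudocount of 1 is about the level in DMSO, and -3.59 ± 0.14 in Cov (adjusted p = 9.29e-07). From 50 to 250 nM, both libraries fell below both at 50 nM for 8 of 9 members in Ku, all but BIRC3, and for 87.7% of all active genes. In Cov they did for all 9 and for 75.6% of all genes.

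Leaving out 1 library changed some calls among the inhibitors and receptors. In Ku at 250 nM the number of members called lower ranged from 6 to 8, where 42.7% to 63.5% of all active genes were called lower in the same fits. CFLAR was no longer called without any of the DMSO or 250 nM libraries of Ku, with log2 fold changes of -1.51 to -1.34, and TNFRSF10B was not called without either 250 nM library. BIRC3 was not called without any Ku library except DMSO replicate 2, and its adjusted p went up to 0.00521. In Cov at 50 nM TNFRSF10A was not called without either DMSO library, at -1.07 without replicate 1 and -0.97 without replicate 2. TNFRSF10B, CFLAR and BIRC2 were not called without Cov DMSO replicate 2, at -0.995, -0.94 and -1.31. With all libraries these 4 genes were at -1.02, -1.07, -1.03 and -1.42 in the same order. In Cov at 250 nM all 9 stayed called without each library in turn.

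Another scale moved the direction of several members. When the libraries of a line were instead scaled to equal medians, TNFRSF10B was 0.85 higher on the log2 scale in Ku at 250 nM and called higher, and 0.22 higher in Cov. CFLAR was then 0.38 higher in Ku and 0.27 higher in Cov, and FAS and BIRC3 were 0.093 and 0.14 higher in Ku, none of them called. With median-of-ratios scaling TNFRSF10B was 0.36 higher in Ku and the other members were lower. FADD stayed called lower at 250 nM under both, with log2 fold changes of -3.97 and -4.20 in Ku and -3.47 and -3.82 in Cov. CASP8 and XIAP in Ku and FAS, BIRC2 and BIRC3 in Cov also stayed called lower under both, and the other members were not called lower under at least 1 of them. At 50 nM equal medians also put FAS, TNFRSF10A, TNFRSF10B and CFLAR above DMSO in Ku and TNFRSF10A, TNFRSF10B and CFLAR above it in Cov. None of these was called higher, and the all-gene median at 50 nM was then 0.11 in Ku and 0.13 in Cov. The all-gene median at 250 nM became 0.30 in Ku and 0.33 in Cov with equal medians and -0.00088 and 0.011 with median of ratios, so these values set a gene against the rest of the transcriptome and not against the cell. Of all active genes in Ku at 250 nM, 9774 were called lower and 7 higher on the deposited scale, 1664 and 3853 with equal medians and 2709 and 1579 with median of ratios. In Cov these were 11971 and 15, 1613 and 3789, and 2694 and 1222.

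**Figure D3:**
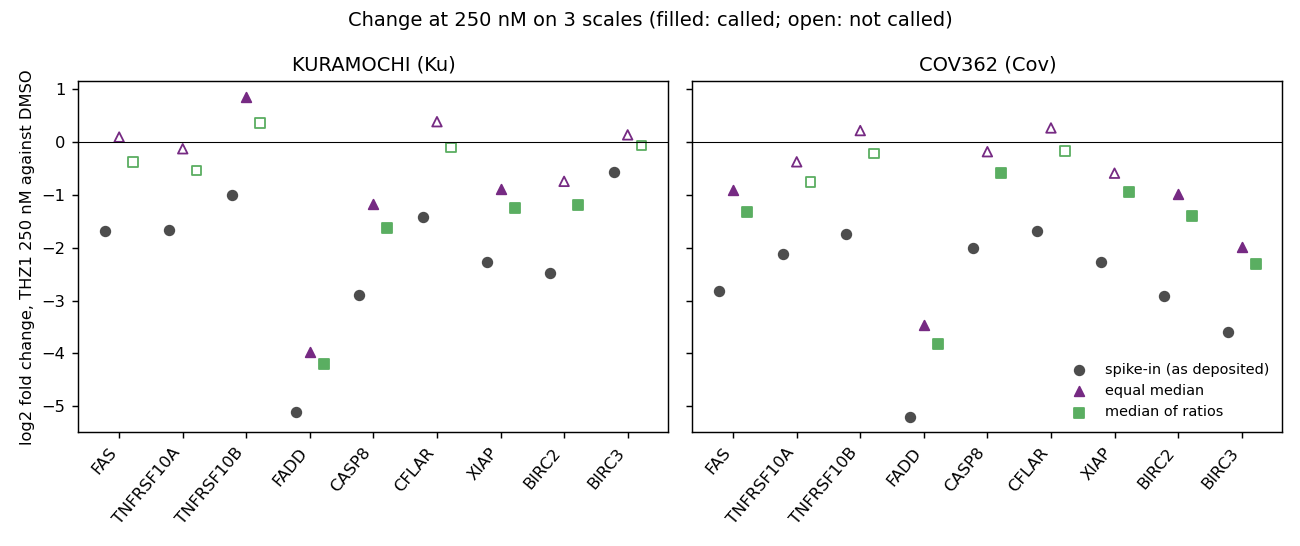
Log2 fold change at 250 nM against DMSO for the 9 genes in Ku (left) and Cov (right) on 3 scales: spike-in as deposited (circles), equal medians (triangles) and median of ratios (squares). Filled symbols were called and open ones were not. FADD stays far below 0 on every scale, while TNFRSF10B in Ku goes from -0.997 to 0.36 and 0.85.

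The order of the levels changed with dose. FPKM are per length, so genes can be set side by side within a line. In Ku DMSO libraries the order was FADD, CASP8, BIRC2, TNFRSF10B, CFLAR, FAS, XIAP, TNFRSF10A and BIRC3, with means from 46.3 to 0.921 FPKM. TNFRSF10B, CFLAR and FAS did not differ beyond their spread, nor did XIAP and TNFRSF10A. With 250 nM TNFRSF10B led at 8.73 FPKM, followed by CFLAR at 5.96 and FAS at 4.75, and FADD had dropped to the eighth place at 0.367, above BIRC3 only. In Cov DMSO libraries FADD led at 99.9 FPKM, followed by BIRC2, FAS, TNFRSF10B, CFLAR, BIRC3, CASP8, TNFRSF10A and XIAP, and only TNFRSF10B and CFLAR overlapped. With 250 nM CFLAR at 9.24 FPKM and TNFRSF10B at 9.08 led and overlapped, and FADD was at 1.76, overlapping XIAP.

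Ratios of members within a library stay the same when all its values are multiplied by 1 factor. They were chosen after the values were seen and carry no test. The ratio of CFLAR to CASP8 was 0.616 ± 0.053 (SD, n = 2) in Ku DMSO libraries, 1.21 ± 0.35 with 50 nM and 2.04 ± 0.53 with 250 nM. In Cov it was 1.79 ± 0.070, 2.49 ± 0.086 and 2.51 ± 0.054. CFLAR thus went from below CASP8 to above it in Ku and was above it throughout in Cov. The ratio of TNFRSF10B to FADD went from 0.400 in DMSO to 4.18 and 23.9 in Ku, and from 0.327 to 1.12 and 5.19 in Cov, with no overlap between groups. That of CFLAR to FADD went from 0.383 to 2.92 and 16.3 in Ku and from 0.322 to 1.13 and 5.29 in Cov. The ratio of TNFRSF10B to TNFRSF10A, both TRAIL receptors, was 2.43 in Ku and 2.23 in Cov DMSO libraries and 5.08 and 3.53 with 250 nM. BIRC2 was 24.8 times the level of BIRC3 in Ku and 2.0 times in Cov in DMSO. In Ku this ratio was higher with 50 nM, at 37.1, and lower with 250 nM, at 8.56 and 14.6 in the 2 libraries, while in Cov it was 3.47 and then 4.90. BIRC3 was low in the treated Ku libraries, at 0.259 to 0.389 FPKM, and its 2 doses overlapped there, so the Ku ratios are imprecise.

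**Figure D4:**
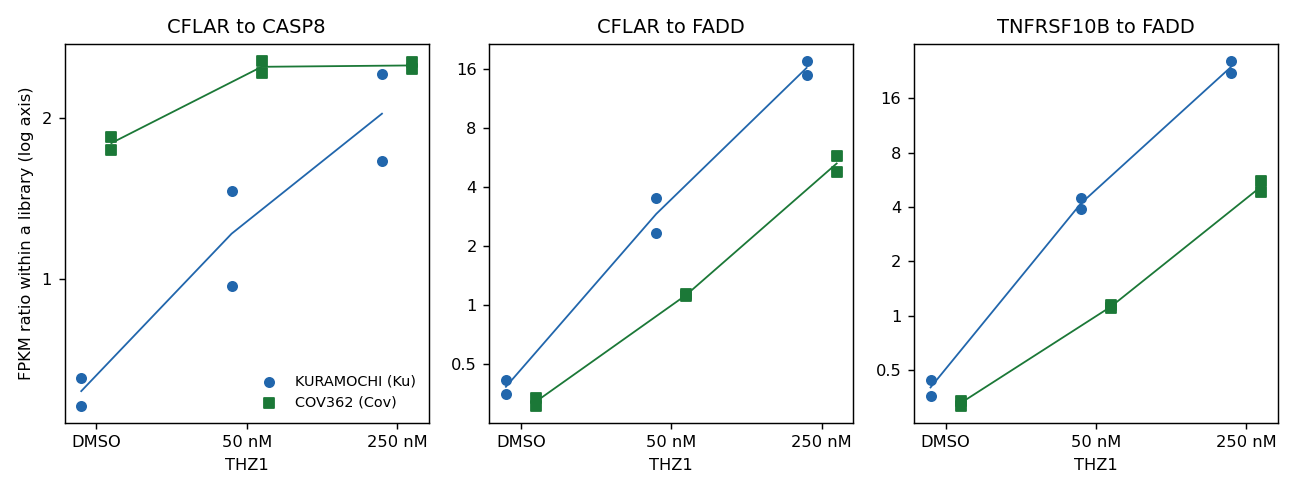
Ratios of FPKM within a library (log axes) by THZ1 dose, for CFLAR to CASP8, CFLAR to FADD and TNFRSF10B to FADD, with Ku as circles and Cov as squares. Points are libraries and lines join the means. The ratio of TNFRSF10B to FADD rises from 0.400 to 23.9 in Ku and from 0.327 to 5.19 in Cov.

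The profiles of the members over the 8 treated libraries, as log2 change from the DMSO mean of their line, were compared by root mean square difference. The closest pair of members was TNFRSF10A and CFLAR at 0.308, then TNFRSF10B and CFLAR at 0.323, and the farthest was TNFRSF10B and FADD at 3.22. Among all active genes, the nearest to FAS were INSIG2 at 0.103 and SH2D4A at 0.117, and to TNFRSF10A TNIP1 at 0.122 and NOM1 at 0.126. HIF1A at 0.0491 and ATF6 at 0.0648 were nearest to TNFRSF10B. ANKRD1 at 0.705 and PNRC2 at 0.727 were nearest to FADD, more distant than the nearest genes of any other member. The nearest were LOC100506710 at 0.0988 and CTDSP1 at 0.142 for CASP8, HUS1 at 0.0651 and ISCA1 at 0.0742 for CFLAR, and MAT2A at 0.0616 and KLHL42 at 0.0841 for XIAP. For BIRC2 they were CWC22 at 0.102 and RSBN1L at 0.114, and for BIRC3 CXCL10 at 0.1004 and ZIK1 at 0.208. These distances depend on the pseudocount and the scale. With a pseudocount of 0.1, BIRC3 to CXCL10 was 0.339 and to ZIK1 0.600, FAS to INSIG2 was 0.533, XIAP to MAT2A was 0.462, BIRC2 to RSBN1L was 0.275, CASP8 to CTDSP1 was 0.269 and FADD to ANKRD1 was 1.08. TNFRSF10A to TNIP1 was then 0.267. With equal medians FAS to INSIG2 was 0.430, XIAP to MAT2A was 0.377, TNFRSF10A to TNIP1 was 0.268 and BIRC3 to CXCL10 was 0.222.

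A list of 45 further genes of the pathway was measured, of which 39 were active. In Ku 8 of the 39 were called lower at 50 nM, against 11.3% of all active genes, and 27 at 250 nM, a share near the background of 68.6%, and limma called none higher, with 1 above DMSO at an unadjusted p under 0.05, TNF at 50 nM. In Cov 31 were called lower at 50 nM, against 70.5%, and 35 at 250 nM, against 84%, with 1 called higher at each dose. These counts depend on the scale. With equal medians 5 of the 39 were called lower at 250 nM in each line, against 11.7% of all active genes in Ku and 11.3% in Cov, and with median of ratios 9 in Ku, against 19%, and 10 in Cov, against 18.9%. At 50 nM in Cov 0 were called lower under either, where 0.154% and 0.772% of all active genes were, and in Ku 0 and 2 were, against 0.589% and 2.72%. Called higher at 250 nM were 6 in Ku and 9 in Cov with equal medians, against 27% and 26.6% of all active genes, and 2 and 4 with median of ratios, against 11.1% and 8.57%. In Cov at 50 nM 0 were called higher without either DMSO library and 2 without 50 nM replicate 1. At 50 nM in Cov, 18 were called lower without Cov DMSO replicate 2, and in Ku 0 were without any 1 of the 6 libraries. The list's median log2 fold change was -1.26 in Ku and -1.46 in Cov at 250 nM, beside -1.69 and -2.27 for the 9 members and -1.11 and -1.31 for all active genes.

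Among the ligands, TNF was called higher with 250 nM in Cov. It was at 2.69 and 2.09 FPKM in Cov DMSO libraries, at 3.85 and 5.56 with 50 nM and at 15.8 and 15.0 with 250 nM, a log2 fold change of 2.28 (adjusted p = 7.48e-06). In Ku it was at 10.6 and 8.72 FPKM, then at 14.7 and 17.1, then at 10.7 and 13.8, with a log2 fold change at 250 nM of 0.31 that was not called (adjusted p = 0.117), but it was 2.15 with equal medians and 1.64 with median of ratios, both called higher. TNFSF10, which encodes TRAIL, went from 35.5 and 41.1 FPKM in Cov DMSO libraries to 5.94 and 4.94 with 250 nM, a log2 fold change of -2.61, which was -0.70 and not called with equal medians and -1.12 and called with median of ratios. In Ku it was -0.81 and not called, and 0.69 and 0.27 higher under equal-median and median-of-ratios scaling. FASLG, the FAS ligand, was not active in either line.

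Among the other receptors, TNFRSF1A, the main receptor of TNF, went from 78.1 and 68.4 FPKM in Ku DMSO libraries to 2.58 and 2.74 with 250 nM and from 73.4 and 81.7 to 3.44 and 4.09 in Cov, log2 fold changes of -4.34 and -4.04. TNFRSF10D, a decoy receptor of TRAIL, was at 2.93 and 3.21 FPKM in Cov DMSO libraries, at 6.54 and 8.08 with 50 nM, where it was called higher (log2 fold change 1.03, adjusted p = 0.000208; not called with a replicate block or without either Cov DMSO library), and at 3.62 and 3.11 with 250 nM. At 250 nM in Cov its log2 fold change was 0.10 and not called as deposited, but 1.71 with equal medians and 1.30 with median of ratios, both called higher. In Ku it stayed below 0.5 FPKM in every library. TNFRSF6B, the decoy of FAS ligand, was near 1 FPKM and not called at 250 nM in either line.

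Among the adaptors, RIPK1, the kinase of the TNF receptor complex, had log2 fold changes of -2.44 in Ku and -3.16 in Cov at 250 nM, and the call in Ku was lost with equal medians (-0.73). CRADD was at -0.92, not called, in Ku and at -1.33 in Cov. Of the other caspases, CASP10, the closest relative of CASP8, was at 0.504 FPKM or less in Ku, with a log2 fold change of -0.25 that was not called, and was at -1.03 in Cov, a call lost without Cov DMSO replicate 2 or either 250 nM library (log2 fold changes of -1.06 to -0.87). Of the other inhibitors of apoptosis, BIRC6 was at -1.64 and -1.91, called in both lines, though not in Ku without 250 nM replicate 1 (-1.53), while NAIP was at -0.43 and -0.10 and was called in neither line. Under equal-median scaling CRADD, CASP10 and NAIP were above DMSO at 250 nM in both lines, and BIRC6 was in Ku, but none of these was called higher. The median of all active genes was then 0.30 in Ku and 0.33 in Cov. BIRC6 was not called in either line under equal-median scaling, at -0.10 in Cov, or under median-of-ratios scaling, at -0.36 in Ku and -0.50 in Cov. CRADD and CASP10 in Cov were not called lower under either scaling.

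**Figure D5:**
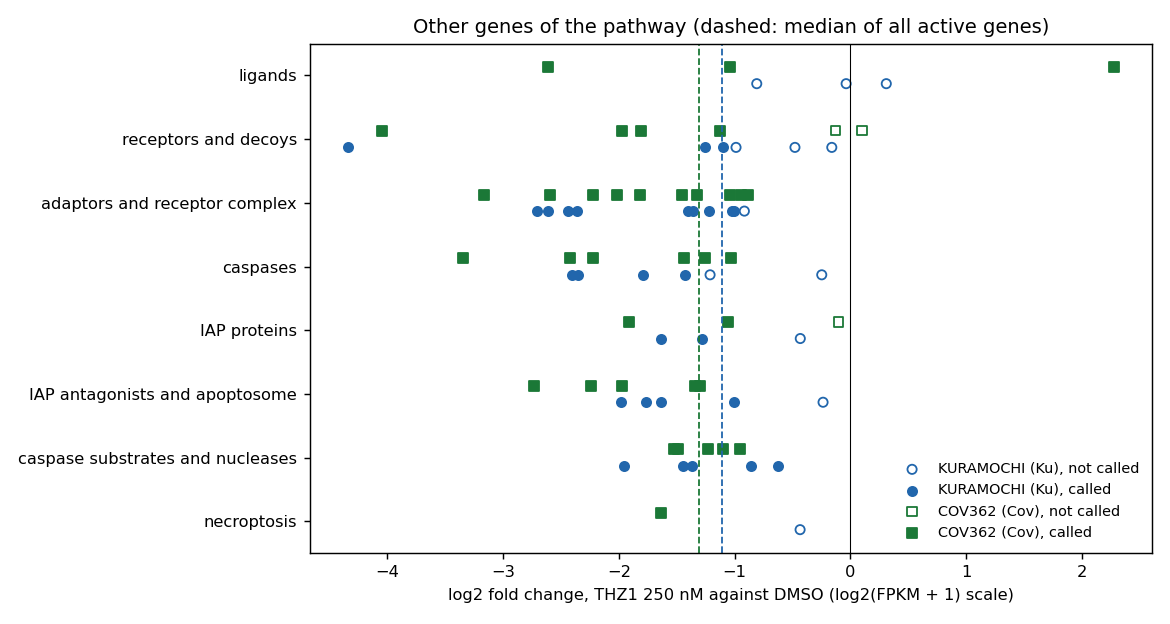
Log2 fold change at 250 nM against DMSO (log2(FPKM + 1) scale) of the 39 other active pathway genes by role, Ku as circles and Cov as squares, filled where called. Dashed lines are the medians of all active genes, -1.11 in Ku and -1.31 in Cov. TNF in Cov, at 2.28, is the only filled point above 0, on the scale as deposited.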

How the data were processed

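The authors sequenced 12 RNA libraries from 2 cell lines. Reads were aligned to hg19 with HiSat, quantified with cuffquant and cuffnorm of the Cufflinks pipeline and normalized to ERCC spike-ins, and the authors deposited the resulting FPKM in 1 table per line. FPKM are not counts, so alignment, quantification and scaling were taken as deposited, edgeR was not used, and depth is unknown. Groups came from the sample labels. Each line was fitted alone, and lines were not tested against each other, since the normalization was separate for each table.

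After removal of the 92 ERCC rows, log2(FPKM + 1) entered limma 3.58.1 (R 4.3.3, eBayes with a mean-variance trend, 3 groups of 2 libraries, two-sided), with Benjamini-Hochberg adjustment over 14251 active genes. With 2 libraries against 2, an exact permutation test of a single gene cannot go below p = 0.333, so none was used. On simulated data with 14251 genes at the spread of the Cov libraries, 60 of 100 genes lowered by 2 on the log2 scale were recovered at an adjusted p under 0.001 and 1 of 100 lowered by 1, and 1 of 14051 unchanged genes was called. At the spread of the Ku libraries these were 24, 0 and 1. The Benjamini-Hochberg cut-off depends on how many genes change. In the simulation 14051 of 14251 genes did not. In the data 68.6% were called lower in Ku at 250 nM, and 70.5% and 84% in Cov at 50 and 250 nM. The recovered shares therefore do not carry over to those comparisons.

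The members and the pathway list were chosen with earlier results of these data known. Every member is named. Of the pathway list, the active gene with the lowest and that with the highest mean log2 fold change at 250 nM in each role are named, with any called higher or not called lower in both lines, and for each member the nearest 2 of all active genes by profile. A gene that this rule names and a marker gene are not reported here. TNFRSF10D at 50 nM was added after its value was seen. Alternatives were a pseudocount of 0.1, no minimum FPKM, equal-median and median-of-ratios scaling, only the 2 groups compared, a replicate block, no trend, an adjusted p of 0.05, and each library left out. Positions are from GENCODE on GRCh37 and promoter sequences from RefSeq on GRCh38.p14. Plots used matplotlib 3.10.9 and Python 3.11.15.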

Additional observations from a re-analysis of the deposited data

Results flagged for a closer look

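At 50 nM, LMNA, which encodes the nuclear lamins A and C that caspases cleave, moved in opposite directions in the 2 lines. In Ku both libraries at 50 nM, at 758 and 810 FPKM, were above both DMSO libraries, at 734 and 714, a log2 fold change of 0.11. In Cov both, at 652 and 628, were below both DMSO libraries, at 819 and 892, a log2 fold change of -0.42. Set against the median of all active genes, which was -0.40 in Ku and -0.85 in Cov, LMNA lay 0.51 above it in Ku and 0.43 above it in Cov, the same direction in both. Neither fold change was called, and the difference was not tested.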

How the results depend on the processing

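Of 408 log2 fold changes of named genes recomputed without each library in turn, 1 changed sign and 28 lost their call. The sign changed for TNFRSF6B in Cov at 250 nM, which ranged from -0.29 to 0.034, the latter without Cov DMSO replicate 2. The number of members called lower ranged from 0 to 1 in Ku at 50 nM, from 6 to 8 in Ku at 250 nM and from 5 to 9 in Cov at 50 nM, and it was 9 throughout in Cov at 250 nM. For the pathway list the ranges were 0 to 0 (8 with all libraries), 22 to 26, 18 to 31 and 31 to 35. Over all active genes they were 6 to 131, 6085 to 9044, 4314 to 9929 and 10451 to 12341. Each of these fits left a group with 1 library, assumed to vary like the others.

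In Ku at 50 nM, where 1 member, 8 pathway genes and 1607 of all active genes were called lower, an adjusted p under 0.05 gave 8, 23 and 5734. With no minimum FPKM, which tests 23621 genes, these were 0, 0 and 3. The 2 groups alone gave 0 pathway genes and 9 of all, which uses fewer libraries, and no trend gave 5 pathway genes. The replicate numbers did not pair the libraries, with correlations of deviations between -0.070 and 0.028, and a replicate block gave 5 pathway genes and 989 of all, with 1 member as before. At 250 nM, CFLAR, BIRC3 and PARP1 in Ku and CASP10 in Cov were not called with no minimum FPKM, nor were BIRC3 and PARP1 in Ku with no trend. Under the block 9 members were called lower in each of the other 3 comparisons. Of the 14251 active genes, 9485 in Ku at 250 nM were too, and 7266 and 11202 in Cov at 50 and 250 nM. No call of a named gene changed under the block among those listed at 250 nM and the members at 50 nM.

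With equal medians 3 members and 5 pathway genes were called lower in Ku at 250 nM, 0 and 0 in Cov at 50 nM, 4 and 5 in Cov at 250 nM, and 0 pathway genes in Ku at 50 nM. With median of ratios these were 4 and 9, 1 and 0, 10 pathway genes in Cov at 250 nM, and 2 in Ku at 50 nM. Of all active genes, 84 and 387 were called lower in Ku at 50 nM and 22 and 110 in Cov at 50 nM. Log2 fold changes that turned positive with equal medians in Ku at 250 nM were 0.14 for BIRC3, 0.11 for BIRC6, 0.30 for CASP10, 0.38 for CFLAR, 0.51 for CRADD, 0.96 for CYCS, 0.26 for DIABLO, 0.093 for FAS, 0.13 for MLKL, 0.57 for NAIP, 1.35 for PARP1, 0.85 for TNFRSF10B, 0.29 for TNFRSF10D, 0.66 for TNFRSF6B and 0.69 for TNFSF10. In Cov at 250 nM they were 0.17 for CASP10, 0.27 for CFLAR, 0.42 for CRADD, 0.74 for CYCS, 0.073 for MLKL, 0.43 for NAIP, 0.96 for PARP1, 0.22 for TNFRSF10B and 0.87 for TNFRSF6B. At 50 nM they were 0.096 for CFLAR, 0.062 for FAS, 0.054 for TNFRSF10A and 0.54 for TNFRSF10B in Ku, and 0.14 for CFLAR, 0.090 for TNFRSF10A and 0.10 for TNFRSF10B in Cov. With median of ratios the positive values were 0.13 for CASP10, 0.11 for CRADD, 0.44 for CYCS, 0.27 for NAIP, 0.83 for PARP1, 0.36 for TNFRSF10B, 0.14 for TNFRSF10D, 0.32 for TNFRSF6B and 0.27 for TNFSF10 in Ku at 250 nM, 0.025 for CRADD, 0.29 for CYCS, 0.27 for NAIP, 0.50 for PARP1 and 0.59 for TNFRSF6B in Cov at 250 nM, and 0.41 for TNFRSF10B in Ku at 50 nM. Which scale is nearer to the amount per cell was not tested.

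Read depth is unknown, 2 libraries a group limit the precision, and values near 0.1 FPKM cannot be told from undetected genes. A pseudocount of 0.1 changed no direction of a named fold change and added a call of MLKL in Ku, and it moved the profile distances of members to their nearest genes from a range of 0.0491 to 0.727 to one of 0.0694 to 1.08.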

Other observations

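Of the 5 genes of IAP antagonists and the apoptosome, 4 were called lower in Ku and all 5 in Cov at 250 nM. DIABLO, which encodes the IAP antagonist SMAC, had log2 fold changes of -1.63 in Ku and -2.24 in Cov, and was 0.26 higher in Ku and at -0.34 in Cov under equal-median scaling, and at -0.24 and -0.76 under median-of-ratios scaling, not called in any of the 4. CYCS, which encodes cytochrome c, was the gene of this group that fell least on average, at -1.004 and -1.30, going from 84.2 and 92.1 to 35.9 and 34.6 FPKM in Cov, and it was 0.96 and 0.74 higher under equal-median scaling. All 5 caspase substrates and nucleases were called lower in both lines at 250 nM, where 68.6% and 84% of all active genes were, but PARP1 in Ku was not called without DMSO replicate 1 or either 250 nM library (log2 fold changes of -0.67 to -0.54). The nuclease DFFB was at -1.95 in Ku and -1.23 in Cov, and the call in Cov was lost under equal-median scaling, at -0.041, and under median-of-ratios scaling, at -0.30. PARP1 was at -0.62 and -1.10, but 1.35 and 0.96 higher under equal-median scaling.

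Of the 3 necroptosis genes listed, only MLKL, the executioner of necroptosis, was active. It was at 9.35 and 9.87 FPKM in Cov DMSO libraries and at 2.59 and 2.26 with 250 nM, a log2 fold change of -1.63, which became 0.073 under equal-median scaling and -0.31 under median-of-ratios scaling, neither of them called. In Ku it was at 0.664 FPKM or less in every library and was not called, at -0.43, but a pseudocount of 0.1 gave -1.23, which was called. RIPK3, its upstream kinase, and ZBP1 were below 1 FPKM in every library of both lines.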
